A study of Homo sapiens with 12 samples.

Results

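The SMAD genes are a family of 8 members, SMAD1 to SMAD7 and SMAD9. They were chosen by name, as the rows whose Ensembl gene identifier maps in GENCODE v44 to 1 of these symbols, and make up 8 of the 58302 identifiers in the count table. All 8 were among the 17188 genes that passed the filter on low counts, and the lowest count of any member in any library was 93 reads.

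The libraries came from NCIH838, an established lung cancer cell line, carrying an all-in-one construct with a guide against MIB1, an E3 ubiquitin ligase, and a Cas9 that doxycycline (Dox) switches on (MIB1-iKO cells). Cells were held for 3 days in 50 nM LDN, an inhibitor of the BMP type I receptor kinases that the labels spell both LDN193189 and LDN189193, without Dox (WT) or with 0.5 µg/mL Dox (KO). They then received 10 ng/mL BMP4 for 24 hours together with LDN (BMP-off) or together with the solvent DMSO after the inhibitor was removed (BMP-on). This gave 4 groups of 3 libraries, called WT BMP-off, WT BMP-on, KO BMP-off and KO BMP-on. BMP4 was present in every group, every library carried the construct, and every KO library and no WT library had Dox and induced Cas9, and what Dox or Cas9 does therefore cannot be told apart from what MIB1 loss does. The cells were derived from single-cell clones, and neither the clone nor which of the study's MIB1 guides these libraries carried was stated. The labels do not say that replicates were separate cultures, so p-values measure the spread between these libraries, which may be technical.

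SMAD proteins carry signals of the transforming growth factor β (TGF-β) superfamily from the cell surface to the nucleus. Receptor SMADs are phosphorylated by activated type I receptors, SMAD1, SMAD5 and SMAD9 by the BMP branch and SMAD2 and SMAD3 by the TGF-β and activin branch, and both kinds join the common SMAD, SMAD4, to bind DNA. The inhibitory members SMAD6 and SMAD7 block receptors and receptor SMADs, and their genes are known BMP targets that act in negative feedback. The protein encoded by SMAD9 is also known as SMAD8.

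The count of MIB1 reads checked the knockout. MIB1 lay between 144 and 176 CPM (counts scaled to the size of the library, with TMM factors) in the 6 WT libraries and between 31.0 and 34.4 CPM in the 6 KO libraries. Totals ran from 19124010 to 29498000 counts per library. Of the markers of an epithelial cell, 4 of 6 had a median of at least 1 RPKM (reads scaled to the length of the gene and the size of the library), led by KRT18 at 79.3 and KRT8 at 32.3 RPKM. None of the 4 lung lineage, 3 leukocyte or 3 endothelial markers reached that level, and the leukocyte marker PTPRC had 0 counts. Of 4 fibroblast markers 1 did, COL1A1 at a median of 3.65 RPKM. The summed fibroblast markers moved with BMP, from 2.60 to 3.61 RPKM in WT BMP-off, 4.70 to 4.97 in WT BMP-on, 2.06 to 3.38 in KO BMP-off and 5.42 to 6.64 RPKM in KO BMP-on. Most of that sum was COL1A1, which rose in KO (1.39 on the log2 scale, edgeR adjusted p = 0.000602) and was at 0.73 in WT (adjusted p = 0.0728), while LUM was at -0.11 in WT and 0.081 in KO and COL1A2 and DCN reached at most 5 and 3 counts in a library. Of the epithelial markers, EPCAM fell with BMP in WT (-0.56, edgeR adjusted p = 0.00794) and in KO (-0.61, adjusted p = 0.00152), and KRT8 (0.61, adjusted p = 0.00413) and CLDN4 (1.55, adjusted p = 7.16e-05) rose in KO. The part of these markers in the results on SMAD genes was not tested. Fewer cells of a type and less RNA per cell cannot be told apart in these bulk libraries.

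On the genome (GRCh38), 5 of the 8 genes share 2 chromosomes. SMAD6 (ENSG00000137834) lies on the plus strand of chromosome 15 from 66702236 to 66782849, and SMAD3 (ENSG00000166949) follows on the same strand from 67063763 to 67195173, with 280914 bases and no other protein-coding gene between them. SMAD2 (ENSG00000175387), SMAD7 (ENSG00000101665) and SMAD4 (ENSG00000141646) lie on chromosome 18, the chromosome of MIB1, at 25.9, 27.0 and 29.2 Mb beyond its end. SMAD1 (ENSG00000170365) is on chromosome 4, SMAD5 (ENSG00000113658) on chromosome 5 and SMAD9 (ENSG00000120693) on chromosome 13. Genes that overlap a member and have their own row held at most 0.109% of that member's counts, with the exception of ENSG00000259347 opposite SMAD3, whose 651 counts over 12 libraries equal 2.73% of those of SMAD3. Members are related in sequence, and how reads that match several genes were assigned was not given in the sources used here.

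All 8 members have promoter windows in the RefSeq table of GRCh38.p14, each holding 250 bases before and 50 bases from a transcript start, and the window at the start of the MANE Select transcript was taken for each. The windows of SMAD6, SMAD7 and SMAD9 are shown because these were the members whose transcripts rose with BMP. They are written 5′ to 3′ on the strand of the gene, and capitals mark matches on either strand to GGCGCC, a GC-rich motif bound by SMAD1 and SMAD5, to CAGAC, the core of a SMAD-binding element, or to GTCTAGAC, the palindrome bound by SMAD3 and SMAD4.
SMAD6, chr15:66701986-66702285, plus strand: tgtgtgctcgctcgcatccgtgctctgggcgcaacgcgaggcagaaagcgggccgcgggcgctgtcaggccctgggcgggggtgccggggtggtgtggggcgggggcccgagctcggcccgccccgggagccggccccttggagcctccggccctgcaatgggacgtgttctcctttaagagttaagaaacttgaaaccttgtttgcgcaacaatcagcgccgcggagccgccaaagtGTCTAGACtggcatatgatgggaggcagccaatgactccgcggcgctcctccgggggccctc
SMAD7, chr18:48950916-48951215, minus strand: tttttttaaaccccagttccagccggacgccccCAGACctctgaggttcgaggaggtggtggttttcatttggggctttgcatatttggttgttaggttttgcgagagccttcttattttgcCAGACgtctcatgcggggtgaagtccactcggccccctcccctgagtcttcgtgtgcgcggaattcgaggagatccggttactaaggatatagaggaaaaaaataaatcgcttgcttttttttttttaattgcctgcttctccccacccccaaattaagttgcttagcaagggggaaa
SMAD9, chr13:36920189-36920488, minus strand: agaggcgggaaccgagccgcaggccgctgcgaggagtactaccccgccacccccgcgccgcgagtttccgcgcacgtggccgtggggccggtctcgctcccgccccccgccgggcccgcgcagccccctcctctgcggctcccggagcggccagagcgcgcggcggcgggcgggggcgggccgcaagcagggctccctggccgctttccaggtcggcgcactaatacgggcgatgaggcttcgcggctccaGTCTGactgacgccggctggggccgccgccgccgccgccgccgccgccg
The 8 members have 19 windows in all, of which SMAD7 has 3, and only the 1 taken for each member is described here. Of those taken, the palindrome GTCTAGAC stood only in the window of SMAD6, 12 bases before the start, and 0.202% of all 35116 windows hold it. Whether it stands in another window of SMAD7 or of any other member was not looked at. CAGAC or its reverse complement stood in 3 members' windows, with 2 matches 217 and 128 bases before the start of SMAD7, 1 match next to the start of SMAD9 and 1 in SMAD3, against 45.3% of all windows. GGCGCC stood in 4 of the 8 windows, those of SMAD2, SMAD3, SMAD4 and SMAD5, against 19.2% of all windows, and thus in none of the 3 shown. G and C made up 48.3% of the SMAD7 window and 66.7% to 84.0% of the other members' windows, with a median of 58.7% over all windows. A match is a description of these letters and not a binding site.

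Levels of different genes were compared per length, on the deposited RPKM. In WT BMP-off, SMAD5 stood highest at 15.7 ± 0.840 RPKM (SD, n = 3), followed by SMAD3 at 12.2, SMAD1 at 10.7, SMAD4 at 10.5, SMAD7 at 7.53 and SMAD2 at 6.50 RPKM. SMAD6 at 1.32 and SMAD9 at 0.940 RPKM were the lowest of the family. SMAD1 and SMAD4 overlapped in their ranges, and no other neighbours in that order did. In KO BMP-off the order was the same except that SMAD4 stood above SMAD1 and SMAD9 above SMAD6, and both pairs overlapped.

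With BMP-on the order changed at both ends. SMAD7 became the highest member, at 16.1 RPKM in WT, where its range overlapped that of SMAD5 at 14.9, and at 22.3 ± 2.94 RPKM in KO (SD, n = 3), where it lay above SMAD5 at 15.1 RPKM without overlap. SMAD9 rose from the last place in WT BMP-off to 4.93 RPKM in WT BMP-on and 8.25 RPKM in KO BMP-on, there above SMAD2 at 5.34 RPKM. SMAD6 was the lowest member in KO BMP-on at 4.65 RPKM.

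These orders rest on the lengths behind the RPKM. The deposited values imply 32836 to 34892 bases for SMAD2, so that SMAD2, at 219 CPM the member with the most reads in WT BMP-off, was among the low members per length. For SMAD1 they imply 2175 to 2311 bases, against 7094 bases of merged GENCODE exons and 3002 bases of its MANE Select transcript. Averaged over the groups, 5 of 8 members kept their place with merged exon lengths and 6 of 8 with MANE Select lengths, the latter chosen after seeing the data. With merged exon lengths SMAD1 fell to 3.38 RPKM in WT BMP-off, below SMAD2 at 6.02. Under all 3 lengths SMAD5 was first in both BMP-off groups, SMAD7 was first in both BMP-on groups, and SMAD6 and SMAD9 were the lowest members in both BMP-off groups.

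**Figure D1:**
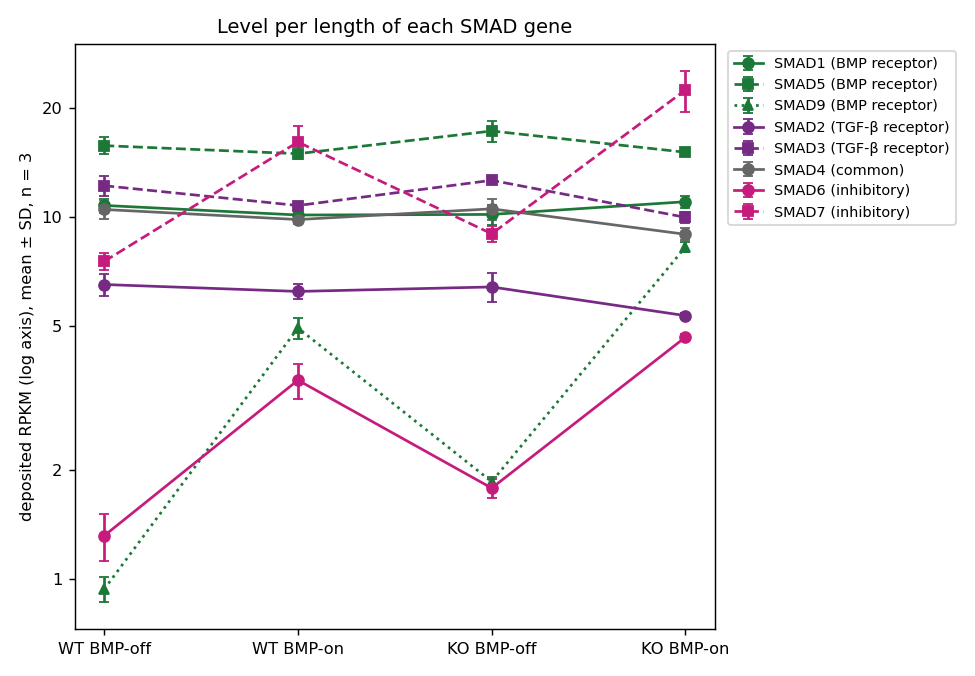
Deposited RPKM of each SMAD gene (vertical axis, log scale; mean ± SD of 3 libraries) in the 4 groups (horizontal axis), with lines joining the same gene and colours giving its role. SMAD6, SMAD7 and SMAD9 rise from BMP-off to BMP-on in WT and KO, while the other 5 members stay between 5.34 and 17.2 RPKM in all groups.

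The family's makeup by role moved accordingly. The inhibitory SMADs held 13.6% ± 1.03 of the summed SMAD RPKM in WT BMP-off and 25.7% ± 1.94 in WT BMP-on (SD, n = 3 each). In KO cells their share went from 15.5% ± 0.880 to 31.5% ± 2.06. The TGF-β receptor SMADs held 27.3% in KO BMP-off and 17.9% in KO BMP-on, and SMAD4 15.1% and 10.5%. The 3 BMP receptor SMADs together stayed near the same share, 41.9%, 39.3%, 42.0% and 40.1% in WT BMP-off, WT BMP-on, KO BMP-off and KO BMP-on. Within them the share of SMAD9 went from 3.44% in WT BMP-off to 16.5% in WT BMP-on, and from 6.37% in KO BMP-off to 24.1% in KO BMP-on. Shares too rest on the lengths behind the RPKM. With merged exon lengths that share of SMAD9 went from 5.32% to 23.7% in WT and from 9.47% to 33.6% in KO. The inhibitory share then went from 15.5% to 27.8% in WT and from 17.3% to 33.7% in KO. Shares sum to a fixed total, so a rise of 1 role lowers the others.

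**Figure D2:**
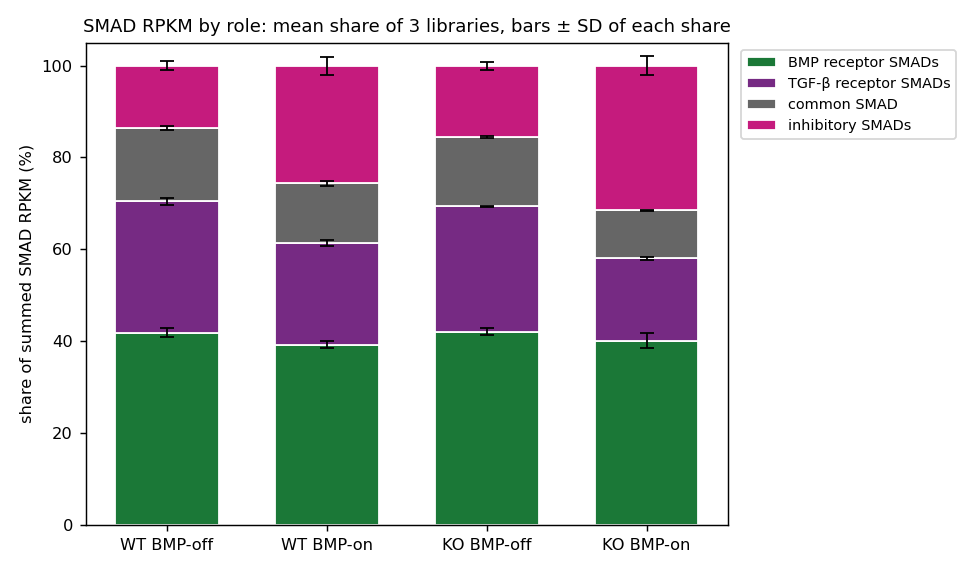
Share of the summed SMAD RPKM (vertical axis, %) held by each role in the 4 groups (horizontal axis); bars are means of 3 libraries and whiskers the SD of each share. The inhibitory share is 13.6% and 15.5% in the BMP-off groups against 25.7% and 31.5% in the BMP-on groups, while the BMP receptor share stays between 39.3% and 42.0%.

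The first question was which SMAD genes respond to the release of BMP signaling. In WT cells 3 of the 8 members rose and none fell, against 3.92% of all genes tested that passed in either direction, 1.91% higher and 2.01% lower. The 3 were SMAD9 and both inhibitory members, and each rose by more than 1 on the log2 scale, as 0.425% of all genes did in either direction. In KO cells the same 3 rose and 4 others fell, SMAD2, SMAD3, SMAD4 and SMAD5, where 22.0% of all genes passed, 11.1% higher and 10.9% lower, and 1.66% by at least 1 on the log2 scale. The median log2 fold change of the 8 members was -0.051 in WT and 0.00040 in KO, against 0.0016 and 0.0056 over all genes.

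**Figure D3:**
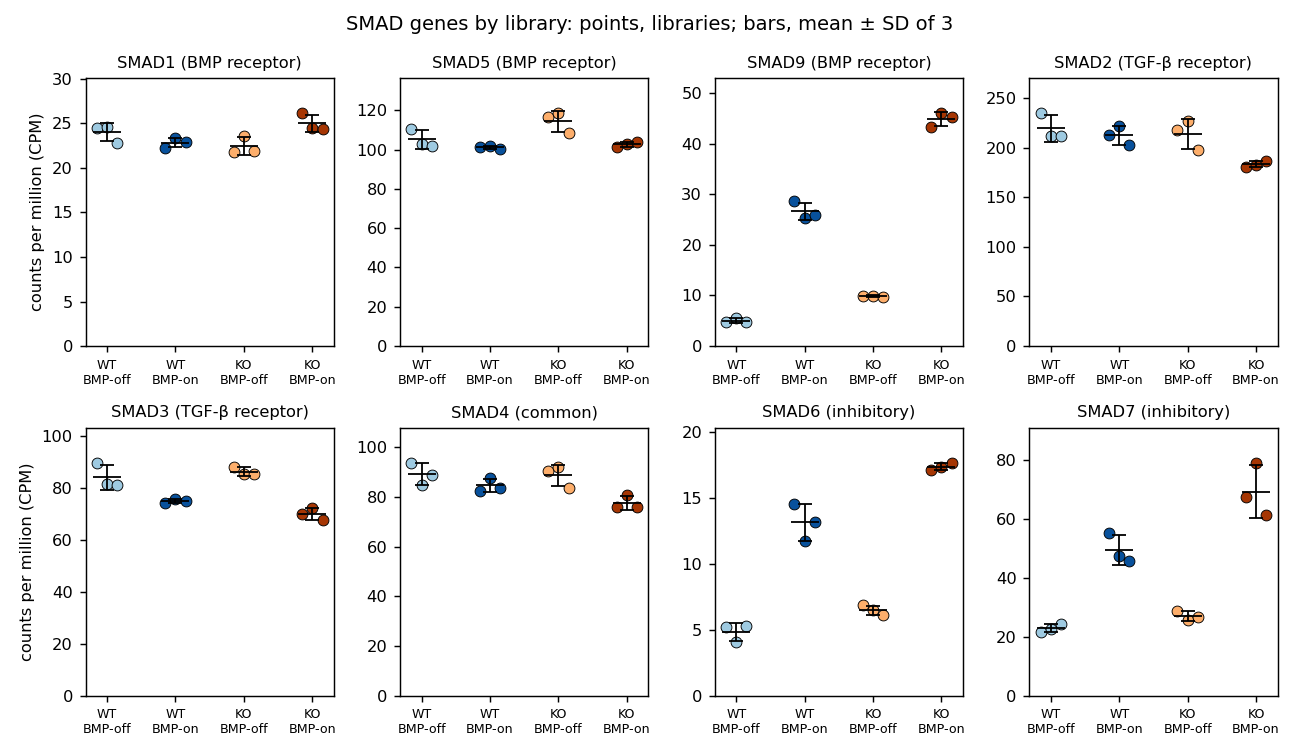
CPM of each SMAD gene (vertical axes, each from 0) in the 12 libraries, with points for libraries and bars for the mean ± SD of 3 in each group. SMAD9, SMAD6 and SMAD7 separate BMP-on from BMP-off without overlap in WT and in KO, and the other 5 genes vary at most 1.32-fold across all libraries.

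SMAD9, the BMP receptor SMAD known to be induced by BMP, changed most. It was read at 4.82, 5.52 and 4.73 CPM in WT BMP-off and at 28.6, 25.4 and 26.0 CPM in WT BMP-on. In KO cells it was read at 9.94, 9.92 and 9.68 CPM with BMP-off and at 43.3, 46.0 and 45.3 CPM with BMP-on. The 4 groups did not overlap, and both BMP-off groups lay below both BMP-on groups. Over all genes tested, BMP-on lay above BMP-off without overlap for 11.2% in WT and 17.9% in KO. The rise was 5.31-fold in WT (log2 fold change 2.41, standard error 0.082, edgeR quasi-likelihood with Benjamini-Hochberg adjustment, adjusted p = 3.76e-11) and 4.55-fold in KO (2.19, standard error 0.074, adjusted p = 1.14e-11).

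SMAD6, which preferentially inhibits the BMP branch, had the lowest counts of the family. It was read at 5.17, 4.04 and 5.28 CPM in WT BMP-off and at 14.6, 11.7 and 13.1 CPM in WT BMP-on. In KO cells the values were 6.84, 6.47 and 6.14 CPM with BMP-off and 17.1, 17.3 and 17.6 CPM with BMP-on, so that BMP-on lay above BMP-off in every library of both genotypes, as it did for 11.2% of all genes in WT and 17.9% in KO. SMAD6 rose 2.71-fold in WT (log2 fold change 1.44, standard error 0.11, edgeR adjusted p = 8.19e-07) and 2.67-fold in KO (1.42, standard error 0.10, adjusted p = 1.42e-07).

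SMAD7, which inhibits both branches, was read at 21.8, 22.7 and 24.3 CPM in WT BMP-off and at 55.3, 47.6 and 45.8 CPM in WT BMP-on. In KO cells it was read at 28.9, 25.6 and 26.9 CPM with BMP-off and at 67.7, 79.1 and 61.3 CPM with BMP-on. Its spread between KO BMP-on libraries, 9.01 CPM (SD, n = 3), was the widest relative to the mean among the members in that group. The rise was 2.16-fold in WT (log2 fold change 1.11, standard error 0.095, edgeR adjusted p = 4.32e-06) and 2.55-fold in KO (1.35, standard error 0.093, adjusted p = 1.37e-07).

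SMAD3, a receptor SMAD of the TGF-β branch, was the member that fell most. It was read at 89.6, 81.5 and 81.3 CPM in WT BMP-off and at 74.3, 75.8 and 75.1 CPM in WT BMP-on. In KO cells it was read at 88.2, 85.4 and 85.4 CPM with BMP-off and at 70.1, 72.4 and 67.7 CPM with BMP-on. BMP-on lay below BMP-off without overlap in both genotypes, as it did for 12.7% of all genes in WT and 17.8% in KO. The log2 fold change was -0.30 in KO (standard error 0.050, edgeR adjusted p = 0.000428) and -0.16 in WT, where it missed the threshold (standard error 0.050, adjusted p = 0.0841, and 0.0232 after the correction for GC content).

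SMAD2, the other receptor SMAD of that branch, and SMAD4, the common partner, had similar patterns. SMAD2 was read at 217, 227 and 197 CPM in KO BMP-off and at 181, 182 and 187 CPM in KO BMP-on, a log2 difference of -0.22 (standard error 0.057, edgeR adjusted p = 0.0102). SMAD4 was read at 90.3, 91.8 and 83.7 CPM in KO BMP-off and at 76.0, 80.6 and 75.7 CPM in KO BMP-on, a log2 difference of -0.20 (standard error 0.054, edgeR adjusted p = 0.0168). In both genes each KO BMP-on library lay below each KO BMP-off library, as for 17.8% of all genes. In WT the groups overlapped, and the log2 fold changes were -0.046 (95% interval -0.166 to 0.074) for SMAD2 and -0.075 (95% interval -0.188 to 0.039) for SMAD4. Both genes lie on chromosome 18 beyond MIB1, as does SMAD7. The 177 tested genes there had a median BMP response of -0.094 in KO and -0.029 in WT. Over all genes tested the medians were 0.0056 and 0.0016. The part of this region in the values of SMAD2 and SMAD4 was not tested. The call of SMAD4 in KO was lost after the GC correction (-0.12, adjusted p = 0.0654) and without replicate 1 or 2 of KO BMP-off or replicate 1 or 3 of KO BMP-on, with values of -0.19 to -0.17 and adjusted p of 0.0549 to 0.0756.

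SMAD5 and SMAD1, the other BMP receptor SMADs, moved little and in opposite directions in KO. SMAD5 was read at 116, 118 and 108 CPM in KO BMP-off and at 101, 103 and 104 CPM in KO BMP-on, a log2 difference of -0.16 (standard error 0.048, edgeR adjusted p = 0.0295). That call was lost under 9 of 23 alternatives, among them the GC correction (-0.050, adjusted p = 0.373) and leaving out replicate 1 or 2 of KO BMP-off or any replicate of KO BMP-on (-0.17 to -0.13, adjusted p of 0.062 to 0.12). SMAD1 was read at 21.8, 23.6 and 21.9 CPM in KO BMP-off and at 26.1, 24.4 and 24.4 CPM in KO BMP-on, a difference of 0.16 on the log2 scale (standard error 0.065, edgeR adjusted p = 0.0932), which passed after the GC correction (0.25, adjusted p = 0.00337). In WT the log2 fold changes were -0.057 (95% interval -0.159 to 0.046) for SMAD5 and -0.070 (95% interval -0.207 to 0.066) for SMAD1. The rank correlation between transcript GC content and a library's deviation from its group mean ran from -0.60 in KO BMP-off replicate 2 to 0.59 in KO BMP-off replicate 3. Transcripts of SMAD1 and SMAD5 hold 39.2% and 36.9% GC, and those of the other members 40.3% (SMAD2) to 58.9% (SMAD6). The call of SMAD2 in KO held under all 23 alternatives, the GC correction included.

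No member's BMP response was called different between KO and WT by the interaction term, which does not show that the responses were equal. Over all genes 16 passed in the main fit, and from 2 on log2(RPKM + 0.1) to 318 with no filter on low counts under the alternatives. None of the 8 passed edgeR's test after adjustment, as 0.0931% of all genes did, and 2 had an unadjusted p under 0.05, as 10.6% of all genes did. These were SMAD1, with a difference of responses of 0.23 (95% interval 0.034 to 0.421, unadjusted p = 0.0242, edgeR adjusted p = 0.388), and SMAD2, with -0.18 (95% interval -0.347 to -0.0080, unadjusted p = 0.0412, adjusted p = 0.452). No other tool or setting run called any member. For the 3 genes that rose the differences of responses were -0.22 for SMAD9 (95% interval -0.457 to 0.014), -0.018 for SMAD6 (-0.339 to 0.302) and 0.24 for SMAD7 (-0.042 to 0.521). On the log2(RPKM + 1) scale the differences of SMAD9 and SMAD6 had the opposite sign, 0.081 and 0.052.

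**Figure D4:**
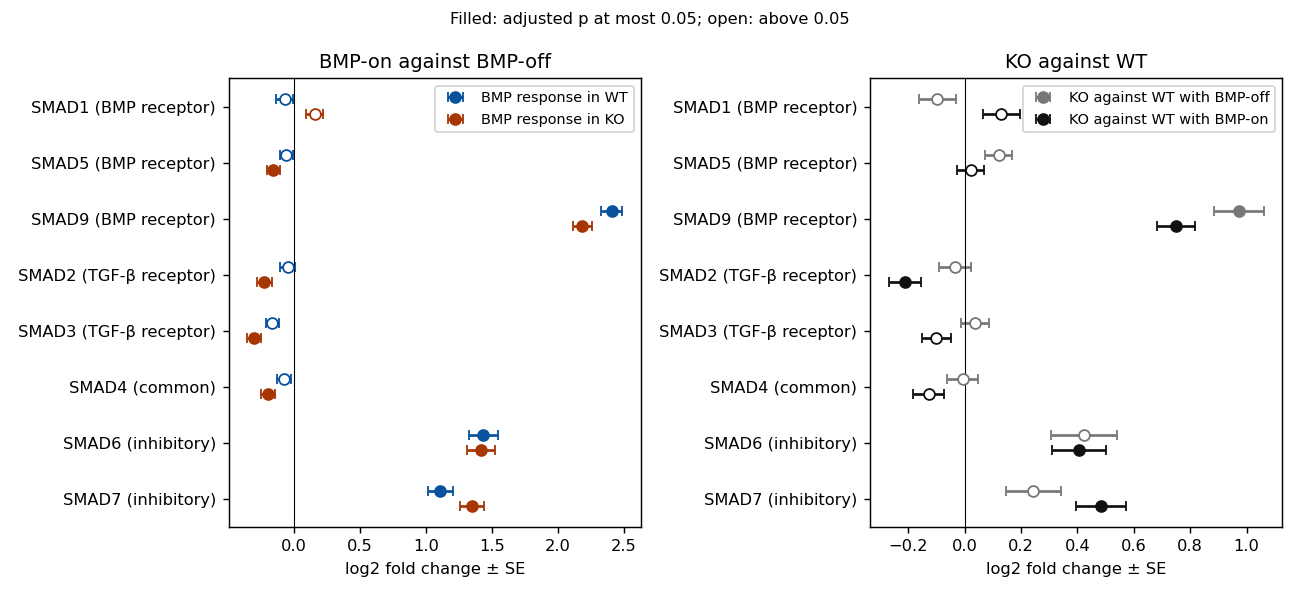
Log2 fold change ± standard error (horizontal axes) of each SMAD gene (vertical axes) for the BMP response of WT and KO cells (left) and for KO against WT with BMP-off and BMP-on (right), from edgeR; filled points have an adjusted p of at most 0.05. SMAD9, SMAD6 and SMAD7 lie above 1 in both BMP responses and above 0 in both KO effects, and SMAD9 is the only filled point with BMP-off.

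The second question was how the SMAD genes differ between KO and WT cells. These comparisons use the same libraries as the BMP responses, so the values of both kinds are not independent. With BMP-off, 1 of the 8 members passed, SMAD9, against 0.0407% of all genes. SMAD9 was 1.96-fold higher in KO (log2 fold change 0.97, standard error 0.088, edgeR adjusted p = 5.65e-05), with 9.85 ± 0.149 CPM in KO and 5.02 ± 0.434 CPM in WT (SD, n = 3 each). It was the 1 gene that passed in the higher direction, 0.00582% of those tested (0.0349% passed lower), and kept its call under all 23 alternatives, with values of 0.56 to 1.04, the lowest on the log2(RPKM + 1) scale. Among all genes 7 passed with edgeR, against 36 with DESeq2 and 73 after the GC correction, and 10.2% had an unadjusted p under 0.05.

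The inhibitory members also lay higher in KO with BMP-off in every library, as 5.76% of all genes did (5.96% lay lower), but missed the threshold. The log2 fold changes were 0.42 for SMAD6 (standard error 0.12, edgeR adjusted p = 0.333) and 0.24 for SMAD7 (standard error 0.097, edgeR adjusted p = 0.434). The other 5 members overlapped between the genotypes and had log2 fold changes from -0.097 to 0.12.

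With BMP-on, 4 of the 8 members passed, against 3.67% of all genes. In neither BMP state did a member differ by 1 or more on the log2 scale, which the study's methods also required. SMAD9, SMAD7 and SMAD6 were higher in KO, as 1.32% of all genes were, and SMAD2 was lower, as 2.34% were. SMAD9 stood at 44.9 ± 1.40 CPM in KO and 26.7 ± 1.69 CPM in WT (SD, n = 3 each), which is 0.75 on the log2 scale (standard error 0.068, edgeR adjusted p = 1.30e-05). SMAD7 stood at 69.3 ± 9.01 against 49.6 ± 5.07 CPM, which is 0.48 on that scale (standard error 0.089, edgeR adjusted p = 0.00541). In both genes every KO library lay above every WT library, as for 11.4% of all genes, and both calls held under all 23 alternatives.

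SMAD6 and SMAD2 passed closer to the threshold. SMAD6 stood at 17.4 ± 0.271 CPM in KO BMP-on and 13.1 ± 1.43 CPM in WT BMP-on (SD, n = 3 each), higher by 0.41 on the log2 scale (standard error 0.097, edgeR adjusted p = 0.0268). Its call was lost without replicate 2 or 3 of WT BMP-on or any replicate of KO BMP-on (0.33 to 0.42, adjusted p of 0.0796 to 0.173) and on both RPKM scales (adjusted p = 0.0701 and 0.14). SMAD2 stood at 183 ± 3.21 CPM in KO and 212 ± 9.62 CPM in WT, a log2 difference of -0.21 (standard error 0.057, edgeR adjusted p = 0.0477). That call was lost under 14 of 23 alternatives with the value between -0.25 and -0.18, including the study's own limma-voom method with quantile normalization (adjusted p = 0.0749), the replicate block (0.0685) and leaving out WT BMP-off replicate 3, KO BMP-off replicate 1 or any BMP-on library (0.075 to 0.27).

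The 4 members without a call with BMP-on were SMAD1 (0.13, 95% interval -0.0066 to 0.267), SMAD5 (0.021, -0.081 to 0.124), SMAD3 (-0.10, -0.208 to 0.0060) and SMAD4 (-0.13, -0.242 to -0.014) on the log2 scale. Of these, SMAD1 lay higher in every KO library and SMAD3 and SMAD4 lower, as 11.4% and 12.2% of all genes did, and no adjusted p was below 0.281. Genes on chromosome 18 beyond MIB1, where SMAD2, SMAD4 and SMAD7 lie, had a median log2 fold change of -0.074 with BMP-on over 177 tested genes, against 0.0025 over all genes tested. With BMP-off the medians were -0.0052 and -0.0086. Their part in the values of SMAD2 and SMAD4 was not tested.

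Averaged over both BMP states, SMAD9, SMAD6 and SMAD7 were higher in KO, by 0.86 (standard error 0.055, edgeR adjusted p = 3.71e-07), 0.41 (standard error 0.077, adjusted p = 0.00604) and 0.36 (standard error 0.066, adjusted p = 0.00616) on the log2 scale, and these calls held under all 22 alternatives. No member was lower, where 2.93% of all genes passed, 1.20% higher and 1.73% lower. The average BMP response over both genotypes had 3 members higher and 4 lower, where 23.2% of all genes passed, 11.4% higher and 11.9% lower. Those lower were SMAD3 (-0.23, edgeR adjusted p = 0.000153), whose call held under all 22 alternatives, and SMAD2 (-0.13), SMAD4 (-0.13) and SMAD5 (-0.11), whose calls were all lost without WT BMP-off replicate 1, WT BMP-on replicate 3, KO BMP-off replicate 1 or KO BMP-on replicate 1, leaving 4 of 8 members. SMAD4 was also lost without WT BMP-on replicate 1, and SMAD5 without WT BMP-on replicate 1 or 2, KO BMP-off replicate 2 or KO BMP-on replicate 2 or 3. The GC correction ended the calls of SMAD5 (-0.040, adjusted p = 0.295) and SMAD4 (-0.083, adjusted p = 0.0565), library size scaling and the replicate block that of SMAD5 (adjusted p = 0.0523 and 0.0532), and the RPKM scales that of SMAD2 (adjusted p = 0.0635 and 0.0624). SMAD1 was not called, at 0.043 (95% interval -0.054 to 0.140).

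Members were then set against each other. For each of the 28 pairs the log2 ratio of both members' CPM was taken in every library, and BMP-on and BMP-off labels were exchanged within genotype, or KO and WT labels within BMP state, in all 400 arrangements. The smallest p this exact permutation test can give is 0.005, and 20 of 28 pairs passed for the BMP response and 20 of 28 for the KO effect after Benjamini-Hochberg adjustment over the pairs. Pairs of other genes were not tested, so no share over all genes stands beside these counts. Every pair of SMAD6, SMAD7 or SMAD9 with a member outside these genes passed in both contrasts, which restates the changes given above. SMAD9 responded to BMP more than SMAD6, by 0.86 on the log2 scale, and more than SMAD7, by 1.07 (exact two-sided p = 0.005 and adjusted p = 0.00737 for both, the smallest possible). The KO effect of SMAD9 exceeded that of SMAD6 by 0.44 and that of SMAD7 by 0.50 (exact p = 0.005, adjusted p = 0.00778 for both). Between the inhibitory members the BMP responses differed by 0.20, with 0.34 in WT and 0.072 in KO (exact p = 0.07, adjusted p = 0.0817), and the KO effects by 0.059 (exact p = 0.57).

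Among the members that moved little, some small differences passed. The pair test was not repeated after the GC correction, so these differences are not known to hold under it. That correction moved the BMP response in KO from -0.16 to -0.050 for SMAD5 and from -0.20 to -0.12 for SMAD4. SMAD3 fell more than SMAD4 with BMP, by 0.098 on the log2 scale, and more than SMAD5, by 0.13 (exact p = 0.005, adjusted p = 0.00737 for both). SMAD2 and SMAD4 differed by 0.00068 in their BMP response (exact p = 0.98). In the KO effect SMAD5 lay above SMAD2 by 0.20, above SMAD4 by 0.14 and above SMAD3 by 0.10 (exact p = 0.005, adjusted p = 0.00778 for each), while SMAD1 and SMAD5 differed by 0.054 (exact p = 0.425).

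Across the 12 libraries, log2 CPM of SMAD6, SMAD7 and SMAD9 rose and fell together, with Pearson r of 0.978 for SMAD6 with SMAD7, 0.982 for SMAD6 with SMAD9 and 0.976 for SMAD7 with SMAD9. These values describe 12 libraries in 4 groups that share the BMP and Dox treatments. SMAD2 and SMAD4 had an r of 0.914, and SMAD3 and SMAD7 an r of -0.900. Among 12837 genes with a mean of at least 50 counts, those most like SMAD9 were ID2 (r = 0.986), a helix-loop-helix inhibitor induced by BMP, the transcription factor GATA2 (0.985) and LRRC15 (0.985). Those most like SMAD6 were DIO2 (0.988), a thyroid hormone deiodinase, GATA2 (0.985) and RNF217 (0.984), and those most like SMAD7 were KANK4 (0.997), the homeobox gene DLX2 (0.994) and GATA2 (0.994).

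Genes that act with SMADs gave the setting for these values. Of 11 receptor genes 8 were tested, of which 1 responded to BMP past the threshold in WT and 2 in KO, where 3.92% and 22.0% of all genes did. BMPR2, the BMP type II receptor, rose with BMP in WT (0.40, standard error 0.075, edgeR adjusted p = 0.00661) and in KO (0.49, standard error 0.075, adjusted p = 0.000295). ACVR1, a BMP type I receptor, rose in KO (0.22, standard error 0.060, adjusted p = 0.0168). The call of BMPR2 in WT was lost on log2(RPKM + 1) and log2(RPKM + 0.1) (adjusted p = 0.0532 and 0.0524), and that of ACVR1 on both as well (0.0858 and 0.0863). The call of ACVR1 was also lost without KO BMP-off replicate 3 or any KO BMP-on library (0.15 to 0.23, adjusted p of 0.0541 to 0.0752). No receptor fell or passed between KO and WT in either BMP state. With BMP-on BMPR2 differed between KO and WT by 0.25 on the log2 scale (standard error 0.075, edgeR adjusted p = 0.0996). The median of the tested receptors was 0.068 in WT and 0.015 in KO for the BMP response, against 0.0016 and 0.0056 over all genes.

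All 11 ubiquitin ligases and deubiquitinases of SMADs were tested. For the BMP response none passed in WT and 4 passed in KO, where 3.92% and 22.0% of all genes did. In KO SMURF2, a ligase that targets receptor SMADs and receptors, rose (0.30, standard error 0.048, edgeR adjusted p = 0.000271), and TRIM33 (-0.27, standard error 0.065), NEDD4L (-0.27, standard error 0.054) and the deubiquitinase UCHL5 (-0.22, standard error 0.053), the last named after its value was seen, fell. SMURF2 was also higher in KO than in WT with BMP-on (0.26, standard error 0.048, edgeR adjusted p = 0.00443), at 63.8 ± 1.82 against 53.3 ± 0.448 CPM (SD, n = 3 each). With BMP-off none of the 11 passed. Their median log2 fold change for the BMP response was -0.016 in WT and -0.063 in KO.

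Of 12 phosphatases, anchors and nuclear transport factors, all tested, 1 rose and 1 fell with BMP in WT and 2 rose and 2 fell in KO, where 3.92% and 22.0% of all genes passed. PMEPA1, which sequesters receptor SMADs, rose by 0.38 in WT (standard error 0.046) and 0.61 in KO (standard error 0.047), and CTDSPL, a small phosphatase of the family that acts on the SMAD linker, fell by 0.31 (standard error 0.050) and by 0.55 (standard error 0.051). CTDSPL was also lower in KO with BMP-on (-0.34, standard error 0.051, edgeR adjusted p = 0.00114), the 1 of the 12 to pass there, and none passed with BMP-off. CTDSP1, a relative of CTDSPL, rose in KO (0.41, standard error 0.11, edgeR adjusted p = 0.0168), a call lost without KO BMP-on replicate 2 (0.36, adjusted p = 0.0656), after the GC correction (0.14, adjusted p = 0.0975) and with only the groups compared (0.41, adjusted p = 0.0789). The median log2 fold change of the 12 for the BMP response was 0.028 in WT and -0.043 in KO.

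Of 15 nuclear partners 13 were tested, and 3 responded to BMP past the threshold in WT and 5 in KO, where 3.92% and 22.0% of all genes did. SKI and SKIL, corepressors of SMAD complexes, rose with BMP by 0.37 each in WT (standard errors 0.056 and 0.058) and by 0.53 and 0.20 in KO (standard errors 0.056 and 0.058). TOB1, a repressor of BMP receptor SMADs, fell by 0.18 in WT (standard error 0.045, edgeR adjusted p = 0.0362). In KO 3 partners fell, RUNX2 (-0.56, standard error 0.17, edgeR adjusted p = 0.0245) and, named after their values were seen, YY1 (-0.14) and TOB1 (-0.14). The call of TOB1 in WT was lost without any 1 of the 6 WT libraries, KO BMP-off replicate 1 or KO BMP-on replicate 1 or 3 (adjusted p up to 0.174), with library size or upper quartile scaling (0.0515 and 0.059), with no filter (0.0553) and with the replicate block (0.0803). Those of SKIL and RUNX2 in KO were lost without KO BMP-off replicate 1 or any KO BMP-on library, and also without KO BMP-off replicate 3 for SKIL and replicate 2 for RUNX2 (adjusted p up to 0.0969 and 0.0854). Both were lost on log2(RPKM + 1) and log2(RPKM + 0.1), with an adjusted p of 0.134 on each for SKIL and of 0.091 and 0.0971 for RUNX2, whose value on the former was -0.19. None passed between KO and WT in either BMP state, and the median log2 fold change for the BMP response was 0.015 in WT and -0.066 in KO.

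All 8 listed BMP targets rose with BMP in both genotypes, where 1.91% of all genes rose in WT and 11.1% in KO. Their median log2 fold changes were 1.28 in WT and 1.55 in KO. The list was chosen with earlier results of these data known, so this count is not independent of the data. The largest changes were those of the antagonist NOG, the repressor HEY1 and the pseudoreceptor BAMBI, with 1.45, 1.43 and 1.35 in WT and 2.30, 2.31 and 2.31 in KO, beside 2.41 and 2.19 for SMAD9. Between KO and WT, 5 of the 8 passed with BMP-on, all higher, where 1.32% of all genes did. None passed with BMP-off, where 0.0407% of all genes did, SMAD9 among them. The targets still leaned higher in KO with BMP-off, with a median log2 fold change of 0.30, against -0.0086 over all genes tested. With BMP-on their median was 0.61, against 0.0025. A higher value in KO with BMP-off was thus not particular to SMAD9.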

How the data were processed

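RNA sequencing of 12 libraries in 4 groups of 3 was analysed. After discarding ribosomal reads, the authors mapped reads with GSNAP against GRCh38, with up to 2 mismatches in 50 bases. Their methods describe counting over RefSeq exons with HTSeqGenie, and they deposited raw read counts per gene and RPKM values. The rows of the count table carry Ensembl gene identifiers, and which gene models gave the counts was not settled here. The sources describe 2 library kits and do not say which was used, so use of strand is unknown. Totals were 19124010 to 29498000 counts per library, and standard errors state the precision they give for each gene.

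Counts were tested with edgeR 4.0.16 in R 4.3.3 (TMM scaling, its filter on low counts, robust quasi-likelihood fit over all 4 groups), with Benjamini-Hochberg adjustment over 17188 genes in each comparison and a threshold of 0.05. Standard errors were the fold change over the root of the F statistic, and 95% intervals used the degrees of freedom of that test. The 7 comparisons were the BMP responses of WT and of KO cells, KO against WT in each BMP state, their interaction and both averages. Levels were compared between genes on RPKM. Pairs of members were compared by an exact permutation test on log2 CPM with a prior count of 0.5. Genes outside the family were named where they were among the 3 with the largest change of their list. Scripts were tested on simulated data. Alternatives were limma 3.58.1 (voom, quantile), DESeq2 1.42.0, other scalings and filters, a replicate block, a GC correction, RPKM scales, fits of only the groups compared, each library left out and other lengths.

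Whether replicate numbers pair the samples was not stated, and the main fit did not pair them. Of 18 same-numbered pairs, 2 had correlated deviations over 0.1. Deviations from means of 3 libraries cannot settle whether the samples were paired. The members and gene lists were chosen with earlier results of these data known. Protein sequences were not used here.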

Additional observations from a re-analysis of the deposited data

Results flagged for a closer look

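Of the 8 BMP targets set beside the SMAD genes, 2 had a larger BMP response in KO than in WT. They passed the interaction term of edgeR, as 0.0931% of all genes did in either direction. Over the 8 targets the median difference of responses was 0.43, against 0.012 over all genes tested. A target that missed the threshold is therefore not shown to respond equally. The difference of log2 fold changes was 0.96 for BAMBI (standard error 0.12, adjusted p = 0.00263) and 0.88 for HEY1 (standard error 0.13, adjusted p = 0.0112). BAMBI kept its call under 21 of 22 alternatives, with the exception of log2(RPKM + 0.1) (adjusted p = 0.0515). HEY1 kept it under 14 of 22, and lost it without WT BMP-off replicate 3, WT BMP-on replicate 2 or 3, KO BMP-off replicate 1 or KO BMP-on replicate 2 or 3 (0.81 to 0.87, adjusted p up to 0.0753), with the replicate block (adjusted p = 0.0509) and on log2(RPKM + 0.1) (adjusted p = 0.0532). No member of the SMAD family was among them.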

How the results depend on the processing

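Of 78 counts of calls and orders under alternatives that kept all libraries, 75 stayed within 1.5 times the main value. The exceptions were KO against WT with BMP-on, where 4 members passed and 2 passed on both log2(RPKM + 1) and log2(RPKM + 0.1), and the order of levels, where 5 of 8 members kept their place with merged exon lengths. Leaving out 1 library gave 2 to 4 members there and 4 to 7 for the average BMP response, where 7 passed.

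Directions turned for values that were not called in any fit. SMAD4 in KO against WT with BMP-off was 0.011 with upper quartile scaling, 0.0049 and 0.0053 with a pseudocount of 1 and 0.1 RPKM, 0.0020 with only the groups compared, and -0.044 to 0.041 with 1 library left out. The interaction of SMAD9 was 0.081 and that of SMAD6 0.052 on log2(RPKM + 1), and that of SMAD6 ran from -0.10 to 0.089 with 1 library left out. Under the same omissions SMAD2 ran from -0.080 to 0.011 for the BMP response in WT and from -0.081 to 0.028 for KO against WT with BMP-off, and SMAD1 from -0.0035 to 0.029 for the average KO effect. The causes were not tested.

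With the replicate block SMAD2 lost its call in KO with BMP-on (-0.21, adjusted p = 0.0685) and SMAD5 in the average BMP response (-0.11, adjusted p = 0.0532), leaving 3 and 6 members, and no other call of a member changed. The average KO effect of SMAD2 passed with no filter (adjusted p = 0.0255), after the GC correction (0.00329) and without KO BMP-off replicate 2 (0.0396).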
